A study of Homo sapiens with 4 samples.

Results

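The DNA loops of chromosome 6 in HepG2 cells, a human hepatocellular carcinoma line, were described for the short and the long arm separately. A loop was taken from a deposited list where its first column named chromosome 6, and was placed on the short arm where both anchors lay below position 58500000 of GRCh38 and on the long arm where both lay above 62600000. Of 66417 loops listed for mock-treated cells, 6264 met this rule, and of 18778 loops listed for PDS-treated cells, 1854 did. A further 6 mock loops and 5 PDS loops of chromosome 6 lay between the arm limits and were left out. Joined, the 2 lists held 7401 different chromosome 6 loops on the arms, of which 717 were in both. The loops came from POLR2A HiChIP, which joins and sequences DNA pieces that lie near each other in the nucleus and are held by RNA polymerase II (RNAPII). The 4 samples were 2 mock-treated replicates, labelled with no treatment, and 2 replicates treated with 20 µM PDS (pyridostatin) for 24 h, all of the same cell line. The replicates of each condition were combined before deposit, so each condition was 1 list, no spread between replicates could be computed, and every interval below covers counting error only. The number of sequenced reads per sample is unknown from these files, so that a PDS/mock ratio holds any difference in depth between the lists as well, while 2 regions of the same lists share that difference.

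A loop that brings a gene's promoter next to another promoter or a distant regulatory element is a way in which transcription by RNAPII can be organised. PDS is a small molecule that binds and stabilises G-quadruplexes (G4s), folded structures that guanine-rich DNA can form and that are common in promoters. Chromosome 6 carries the major histocompatibility complex, the largest histone gene cluster and many short genes on its short arm, while its long arm has fewer and on average longer genes.

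The strength of a loop was the number of paired-end tags (PETs) that joined its anchors, and no loop had fewer than 3. A G4 motif was taken as 4 runs of at least 3 G, with 1 to 7 bases between runs, on either strand. The motif nearest to the midpoint of an anchor is given here for loops that lead the results, with the runs of G in capitals, because it shows what guanine-rich sequence these anchors hold. The first pair belongs to the strongest loop of chromosome 6 in the mock list, at the distal end of the long arm, and lay at chr6:167222711-167222730 on the minus strand and at chr6:167285667-167285696 on the plus strand. The third lay at chr6:31497813-31497836 on the plus strand in the anchor that holds the MICB promoter, and the fourth at chr6:53844094-53844115 on the plus strand in the anchor of the strongest short-arm loop after PDS, within LRRC1. The partner anchors in the strongest loop to MICB and in the LRRC1 loop, at chr6:31393456-31398062 and chr6:53853348-53859551, held no motif.
first anchor, strongest long-arm loop: GGGctGGGGaGGGatGGGGG
second anchor, strongest long-arm loop: GGGGtGGGGGttctggaGGGcggccctGGG
MICB anchor: GGGGGtGGGaatgcGGGGatGGGG
LRRC1 anchor: GGGGtGGGGtGGGcatctGGGG
The RefSeq promoters (GRCh38.p14) of the genes with most loops were also read, and 24 of 25 named genes had an entry. In 23 of the 24 the RefSeq start lay in a loop anchor, and 10 of the 24 promoter windows of 300 bases held a G4 motif. Over all 35116 RefSeq promoters 8778 held this motif (24.997%). Only 1 entry per gene was read for the named genes, most of which had promoters in several anchors. The entry read is therefore not always where the loops were counted, and the difference between these shares was not tested. The 250 bases before the start of AFDN on the long arm, at chr6:167827385-167827634 on the plus strand and outside annotated exons, held a motif on each strand, here in capitals. The matching 250 bases of SLC17A3 on the short arm, at chr6:25874244-25874493 and read on the minus strand, held none. This start lay in an anchor of the strongest short-arm loop of mock-treated cells, and that anchor held 2 motifs elsewhere.
AFDN: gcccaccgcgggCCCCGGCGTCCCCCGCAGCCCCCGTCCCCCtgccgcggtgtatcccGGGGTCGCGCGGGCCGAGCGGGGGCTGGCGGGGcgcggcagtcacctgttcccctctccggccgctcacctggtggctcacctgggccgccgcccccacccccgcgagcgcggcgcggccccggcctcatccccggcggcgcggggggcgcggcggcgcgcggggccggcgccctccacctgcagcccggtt
SLC17A3: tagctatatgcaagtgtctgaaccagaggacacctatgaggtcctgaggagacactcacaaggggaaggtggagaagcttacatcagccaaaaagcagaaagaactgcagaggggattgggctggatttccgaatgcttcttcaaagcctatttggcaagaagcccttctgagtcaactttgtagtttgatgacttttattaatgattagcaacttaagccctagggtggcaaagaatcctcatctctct

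Both arms carried about the same number of loops, although the short arm is much the shorter. The short arm had 3111 mock loops on 58.5 Mb, or 53.2 per Mb (95% exact Poisson interval 51.3 to 55.1), and the long arm 3153 on 108.2 Mb, or 29.1 per Mb (28.1 to 30.2). The density per Mb of the short arm was therefore 1.82 times that of the long arm (1.74 to 1.92). Per gene the order turned: the short arm has 619 protein-coding genes in GENCODE 44 and had 5.03 mock loops per gene, while the long arm has 431 and had 7.32, a ratio of 0.687 (0.654 to 0.722). Both arms lay far above the chromosomes other than 2, 6, 14, 16, 17 and 20, which together had 12.8 mock loops per Mb and 2.04 per gene. Chromosomes 2, 14, 16, 17 and 20, those with most loops for their length beside chromosome 6, had 51.7 per Mb. The number of copies of each chromosome region in these cells was not analysed here.

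After PDS, both arms had lost loops to the same degree. The short arm had 926 loops and the long arm 928, so that the PDS/mock ratio of loop numbers was 0.298 (95% interval 0.277 to 0.320) on the short arm and 0.294 (0.274 to 0.317) on the long arm. The short-arm ratio was 1.01 times the long-arm ratio (0.912 to 1.12), an interval that holds 1. In PETs the fall was from 11850 to 3160 on the short arm and from 12090 to 3240 on the long arm, ratios of 0.267 and 0.268. On both arms the ratio of loop numbers was higher than on the other chromosomes together, where it was 0.237. The short arm's ratio was 1.26 times theirs (1.16 to 1.36) and the long arm's 1.24 times (1.15 to 1.34). Against chromosomes 2, 14, 16, 17 and 20, with 0.324, both were lower, at 0.920 (0.852 to 0.993) and 0.910 (0.842 to 0.982) of that ratio. Mock loops averaged 3.81 PETs on the short arm and 3.83 on the long arm. The mean was 3.63 on the other chromosomes and 4.03 on chromosomes 2, 14, 16, 17 and 20. Weaker loops lie nearer the minimum of 3 PETs, and how far this accounts for the order of the ratios was not tested.

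With a minimum of 5 PETs, though not of 4, the ratios of the arms did not stay alike. Of loops with 5 PETs or more the short arm had 603 in mock and 67 after PDS, a ratio of 0.111 (0.0864 to 0.143), and the long arm 598 and 100, a ratio of 0.167 (0.135 to 0.207). The short-arm ratio was then 0.664 of the long-arm ratio (0.478 to 0.924), which leaves out 1, whereas with 4 PETs or more it was 0.887 (0.739 to 1.06), which does not. With 10 PETs or more, the short arm went from 26 loops to 1 and the long arm from 37 to 0. Loops with exactly 3 PETs were 59.6% of mock loops on either arm and rose to 71.5% after PDS on the short arm and 67.5% on the long arm. Both higher minima were tried on the same loops, and the arms parted at the higher of them. Mock loops with 5 PETs or more were listed after PDS about as often on both arms, 25.4% on the short arm and 25.8% on the long arm.

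Few individual loops were in both lists. On the short arm 354 loops were shared, or 11.4% of those in mock (10.3 to 12.5 by the Wilson method) and 38.2% of those after PDS, and on the long arm 363, which is 11.5% (10.5 to 12.7) and 39.1%. Over all chromosomes 11.0% of mock loops were also listed after PDS and 39.1% of PDS loops were also listed in mock, so both arms stood at the level of the whole lists. A loop can be absent from a list with 2 PETs or fewer, and of the 354 and 363 shared loops 126 and 124 had only 3 PETs in mock and could not be listed with fewer. Among shared loops the PETs after PDS were fewer in 187 and more in 50 on the short arm, and fewer in 195 and more in 63 on the long arm, with equal PETs in the others. With the minimum of 3 PETs in both lists taken into account, the PETs of a shared loop after PDS were 0.487 of those in mock on the short arm (0.426 to 0.553, 262 loops) and 0.524 on the long arm (0.464 to 0.590, 282 loops), with overlapping intervals.

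The chance that a mock loop was listed again rose with its PETs in the same way on both arms. Of short-arm loops with 3 PETs in mock 6.80% were listed after PDS, of those with 5 PETs 20.1%, and of those with 8 or more 44.4% (40 loops). On the long arm the shares were 6.60%, 18.1% and 44% (44 loops). Neither arm stood above the other beyond the intervals in any of the 5 PET classes. In the class of 6 to 7 PETs the short arm, at 24.8% (19.5 to 30.96), was below chromosomes 2, 14, 16, 17 and 20, at 34.6% (32.7 to 36.5), while the interval of the long arm, at 27.03% (21.6 to 33.2), overlapped theirs.

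**Figure D1:**
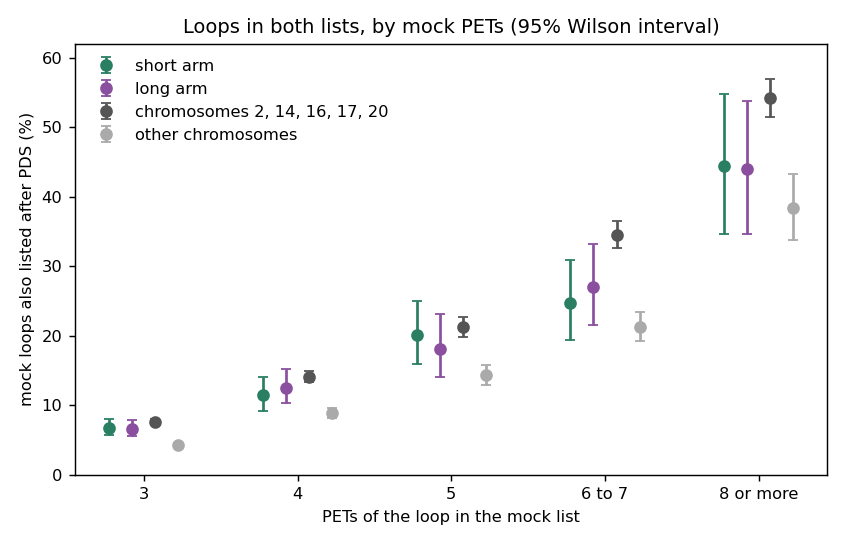
Share of mock loops also listed after PDS, in percent, by the PETs of the loop in the mock list, for the short and long arm of chromosome 6, for chromosomes 2, 14, 16, 17 and 20 together and for all other chromosomes together. Points are shares and bars their 95% Wilson intervals; both arms rise from below 7% at 3 PETs to about 44% at 8 or more and lie close to each other in every class.

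What the loops joined differed between the arms. At least 1 anchor overlapped a promoter, the 1 kb on either side of a transcript start of a protein-coding gene, in 38.2% of short-arm mock loops (36.5 to 39.9) and 34.3% of long-arm mock loops (32.7 to 36.0), against 50.1% on the other chromosomes. Loops from promoter to promoter made up 8.90% of the short-arm list and 6.25% of the long-arm list. A G4 motif lay in an anchor of 76.4% of short-arm mock loops (74.9 to 77.8) and 65.8% of long-arm mock loops (64.1 to 67.5), against 75.2% over all chromosomes. The median anchor was 7336 bp wide on the short arm and 7699 bp on the long arm. The distance between anchors was alike, with a median of 18624 bp in mock and 18417 bp after PDS on the short arm and of 17751 bp and 17863 bp on the long arm.

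Promoter loops fell more than other loops on the long arm. There the PDS/mock ratio was 0.259 for loops with a promoter and 0.313 for those without, a ratio of 0.826 (0.705 to 0.967). On the short arm the values were 0.275 and 0.311, a ratio of 0.885 (0.759 to 1.03), an interval that holds 1. The intervals of the arms overlap, and over all chromosomes the same ratio was 0.829 (0.802 to 0.857). A larger fall of loops with a predicted G4 motif was not detectable on either arm. Their ratio was 1.05 times that of loops without one on the short arm (0.881 to 1.25) and 1.07 times on the long arm (0.917 to 1.25). The lower bounds are the largest excess of the fall that these counts still allow for this split. A motif is not a measured G4, and 76.4% and 65.8% of mock loops held one in their wide anchors. The paper instead split loops by peaks of BG4, an antibody against G4s, and reported a stronger fall for loops with peaks. That split was not made here. By distance, long-arm loops of up to 10 kb had the lowest ratio of the arm, 0.237 (0.202 to 0.279), and those of 10 to 20 kb the highest, 0.343 (0.302 to 0.390). On the short arm the lowest was 0.244 (0.204 to 0.293), for loops of 50 to 200 kb.

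In 10 Mb windows the short arm was even and the long arm was not. Counted from the short-arm end, the 6 short-arm windows had 561, 469, 447, 725, 583 and 326 mock loops and 200, 137, 132, 208, 158 and 91 PDS loops. Their ratios were 0.357, 0.292, 0.295, 0.287, 0.271 and 0.279, and only the first, which holds the FOXC1, FOXQ1, IRF4 and RREB1 region, stood above 1/3. The window with most loops of the chromosome, 725 in mock, held most of the major histocompatibility complex and also had the most genes, 22.9 per Mb, yet its 3.17 loops per gene were among the fewest of the short arm.

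The long arm fell into a sparse proximal part and a dense distal part. Its first window, up to 70 Mb, had 132 mock and 36 PDS loops, a ratio of 0.273 (0.189 to 0.393). The next windows had 62 and 8 loops at 70 to 80 Mb, a ratio of 0.129 (0.0628 to 0.265), and 95 and 15 at 80 to 90 Mb, a ratio of 0.158 (0.0922 to 0.270). At 90 to 100 Mb there were 13 and 2, too few for a ratio, and at 100 to 110 Mb 116 and 18, a ratio of 0.155 (0.0949 to 0.254). From 110 Mb on the windows held 393, 315, 541, 464, 602 and 394 mock loops and 102, 107, 160, 144, 180 and 148 PDS loops, with ratios of 0.260, 0.340, 0.296, 0.310, 0.299 and 0.376, and the last 0.81 Mb held 26 and 8. Of the 17 windows with a ratio, 3 were under 0.2, all of them between 70 and 110 Mb, against 14.7% of windows over all chromosomes, and 3 were over 1/3, against 11.5%. No window of chromosomes 2, 14, 16, 17 and 20 was under 0.2 (0 of 59), while 38 of 203 on the other chromosomes were.

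**Figure D2:**
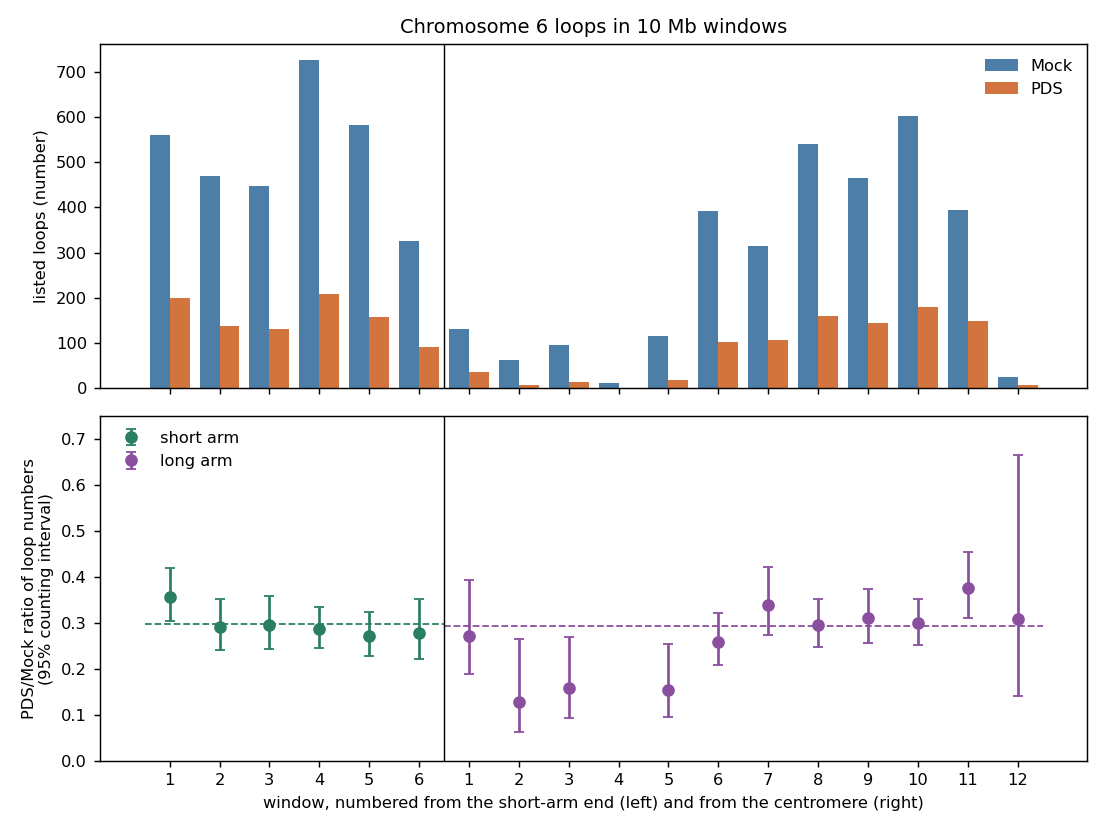
Loops listed for mock-treated and PDS-treated cells in each 10 Mb window of chromosome 6 (upper panel, number of loops) and the PDS/mock ratio of loop numbers with its 95% counting interval (lower panel), for windows numbered from the short-arm end on the left and from the centromere on the right. Dashed lines are the ratio of each arm, 0.298 and 0.294; windows 2, 3 and 5 of the long arm lie at 0.129 to 0.158 and its window 4 has too few loops for a ratio.

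The stretch from 70 to 110 Mb was set after its windows were seen, so its values are a description. It spans 40 Mb with 141 protein-coding genes, and had 286 mock loops and 43 PDS loops, a ratio of 0.150 (0.109 to 0.207). From 110 Mb to the end there were 2735 and 849, a ratio of 0.310 (0.287 to 0.335), and the ratio of the stretch was 0.484 of this (0.348 to 0.674) and 0.505 of the short arm's (0.364 to 0.702). The distal part was as the short arm, 1.04 times its ratio (0.938 to 1.16). Mock loops per Mb were 7.15 in the stretch (6.34 to 8.03) and 45.0 in the distal part, and loops per gene 2.03 and 9.77, so the stretch was close to the 2.04 per gene of the other chromosomes. At least 1 mock promoter loop was listed for 60 of its 141 genes (42.6%) and for 207 of the 280 distal genes (73.9%). Of its mock loops 15 were also listed after PDS, 5.24% (3.20 to 8.47), against 12.2% (11.1 to 13.5) distally. Its mock loops were also weaker, with 3.49 PETs on average against 3.88, and shorter, with a median distance of 12550 bp against 18756 bp. How far these properties account for the lower ratio was not tested. With 4 PETs or more the ratio of the stretch was 0.0778 (0.0367 to 0.165). At that minimum it was 0.210 on the short arm and 0.237 on the whole long arm, which holds the stretch.

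Across the 17 windows of chromosome 6 a denser window tended to have a higher ratio, with Pearson's r of 0.809 between the log2 density and the ratio and a Spearman rank coefficient of 0.439. The windows share 2 lists and are neighbours on 1 chromosome. Among the 11 long-arm windows, which hold the sparse ones, r was 0.857 and the rank coefficient 0.627, and among the 6 short-arm windows r was 0.127. Over 59 windows of chromosomes 2, 14, 16, 17 and 20 r was 0.323, and over 203 windows of the other chromosomes it was -0.103.

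**Figure D3:**
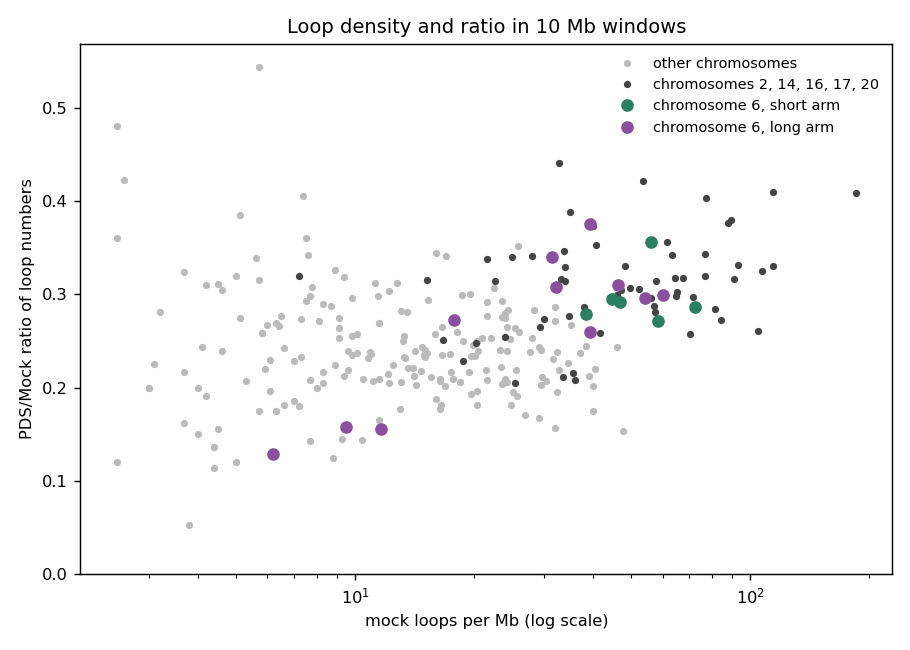
PDS/mock ratio of loop numbers against mock loops per Mb (log scale) in 10 Mb windows with at least 20 mock loops, 1 point per window, for the short and long arm of chromosome 6, for chromosomes 2, 14, 16, 17 and 20 and for the other chromosomes. The 3 sparse long-arm windows at 0.129 to 0.158 lie in the lower left, apart from the other chromosome 6 windows at 0.260 and above, and sparse windows of other chromosomes spread over a wide range.

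Promoter loops were listed for most genes of both arms. In mock-treated cells 481 of 619 short-arm genes (77.7%) and 275 of 431 long-arm genes (63.8%) had at least 1, against 59.8% over all chromosomes. After PDS 250 and 145 had at least 1, or 40.4% and 33.6%, against 28.7%. A loop was credited to every gene whose promoter lay in an anchor, so neighbouring genes can share loops.

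On the short arm the genes with most mock promoter loops were led by DST, which encodes the cytoskeletal linker dystonin and lies at chr6:56457987-56954830. Its promoters had 24 loops with 103 PETs in mock and 7 loops with 23 PETs after PDS, of which 2 were in both lists. ZFAND3, a zinc finger protein gene, had 20 loops and 9 after PDS, the most of any short-arm gene in the PDS list, with 4 shared. SLC22A23, of the organic ion transporter family, had 20 and 7. These 3 genes were also among the 5 with most loops after PDS. A further 8 genes had 15 to 17 mock loops. RUNX2, the transcription factor of bone formation, and its neighbour SUPT3H went from 17 to 4 and from 15 to 3. SLC17A3, a urate and phosphate transporter gene, went from 17 loops with 95 PETs to 5 with 22. TMEM63B, an ion channel gene, went from 17 to 6. GCLC, the catalytic subunit of the enzyme that starts glutathione synthesis, went from 17 to 3. GMDS, an enzyme of GDP-fucose synthesis, went from 16 to 3, and NEDD9, a scaffold of focal adhesions, from 15 to 3. SLC44A4, a choline transporter family gene, was tied in loops with the last of the first 10 and named for its 62 PETs, and went from 15 loops to 2. RREB1, a transcription factor of RAS signalling, was named for its loops after PDS and not for those in mock. It went from 12 loops to 7, and 6 of the 7 were mock loops.

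On the long arm ARID1B, a subunit of the SWI/SNF chromatin remodelling complex at chr6:156776020-157210779, had the most promoter loops of the chromosome. It had 32 loops with 121 PETs in mock and 3 loops with 13 PETs after PDS, of which 2 were shared. PTPRK, a receptor tyrosine phosphatase, had 27 loops with 114 PETs and 6 with 20, and all 6 were mock loops. ADGRG6, an adhesion receptor, went from 23 to 5, SNX9, of endocytosis, from 22 to 4, and REV3L, the catalytic subunit of DNA polymerase zeta, from 19 to 2. AFDN, ENPP1 and TULP4 had 8 loops or more after PDS. AFDN, the adherens junction protein afadin, went from 23 to 8, with 4 in both lists. ENPP1, an ectonucleotidase, went from 17 to 8 with 5 shared, and TULP4, a tubby-like protein gene, from 17 loops with 77 PETs to 10 with 42, of which 6 were shared. The 10 loops of TULP4 were the most of any chromosome 6 gene after PDS. ARHGAP18 went from 18 to 4, and FYN, a Src family kinase gene, from 17 to 5. SYNJ2, a phosphoinositide phosphatase gene, and TAB2, an adaptor of the kinase TAK1, were added by their PETs and went from 16 loops to 3 and from 13 to 2. RPS6KA2, a ribosomal S6 kinase gene, was among the leading genes of the PDS list, with 7 loops against 12 in mock.

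Most of these genes were chosen for high mock counts, for which a lower count after PDS was likely by the choice alone, and RREB1 and RPS6KA2 for high counts after PDS, so their changes and the differences between them are a description. Most of the leading genes were long and had promoters in several anchors, which itself gives more places for a loop to be counted. The 10 short-arm genes with most mock loops had a median length of 267 kb against 15.4 kb for all genes of the arm, and the 10 long-arm genes 199 kb against 54.9 kb. Their promoters lay in a median of 4 and 6 different anchors, against 1 for all genes of either arm. DST used 14 and ARID1B 12, while SUPT3H and ARHGAP18 used 2, and TMEM63B was only 28.6 kb long. With only the canonical start of each gene, DST had 0 mock loops and ARID1B 9, and SUPT3H with 14, VEGFA with 12 and TNFAIP3 with 12 led instead. Of the 10 short-arm genes 2 remained among the first 10 on that count, and of the long-arm genes 3. ADGRG6 had 11 mock loops at its canonical start and 0 after PDS. The 10 genes of each arm together took 164 different mock loops on the short arm, 5.27% of its list, and 215 on the long arm, 6.82%.

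**Figure D4:**
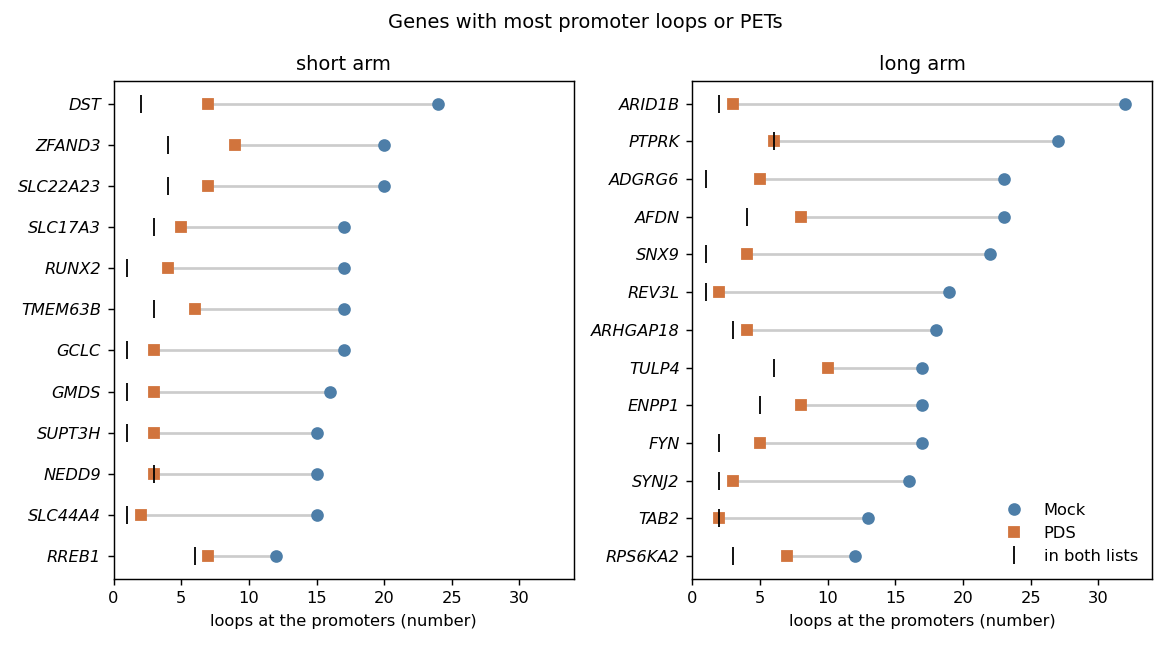
Number of loops at the promoters of the genes with most mock promoter loops, most mock promoter PETs or most PDS promoter loops on each arm, in mock-treated cells (circles), PDS-treated cells (squares) and both lists (bars). Every gene has fewer loops after PDS; ARID1B goes from 32 to 3, while TULP4 goes from 17 to 10 and RREB1 from 12 to 7.

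Some well-connected genes had no promoter loop left. Of 121 short-arm genes with at least 5 mock promoter loops 22 had none after PDS, 18.2%, and of 87 long-arm genes 15, 17.2%, against 21.1% over all chromosomes, so neither arm stood above the background. Among those with most mock loops were MAP3K4, a stress-activated kinase gene, with 11 loops and 41 PETs on the long arm, and ZNF318, a zinc finger gene, and PTCRA, the pre-T-cell receptor alpha gene, with 10 each on the short arm. EEF1A1, translation elongation factor 1 alpha, lost all of its 8 loops and lies in the sparse stretch of the long arm. VARS1, the valyl-tRNA synthetase gene, lost 9, and RIPK1, a kinase of death receptor signalling, 8. These were named after their values were seen. More promoter loops after PDS than in mock were listed for 25 short-arm and 16 long-arm genes, of 619 and 431, against 3.37% over all chromosomes. None had more than 3 loops after PDS: C6orf132 on the short arm and PDE10A, a phosphodiesterase gene, on the long arm went from 1 to 3.

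The gene groups of the short arm are given against all 619 genes of the arm, of which 77.7% had mock promoter loops and 40.4% had loops after PDS, with a median of 2 and 0. Differences between groups were not tested. Of 6 MHC class I genes, which present peptides on nearly all cells, 4 had mock promoter loops and the same number had loops after PDS. HLA-B went from 10 to 4 and HLA-E from 4 to 1, while HLA-C had 3 in both lists, 2 of them the same loops. Of 13 MHC class II genes, which antigen-presenting cells use, 5 had mock loops (38.5%) and 4 had loops after PDS, and the median was 0 in mock. HLA-DMA had 6 and 2, and HLA-DRA, HLA-DRB1, HLA-DQA1 and HLA-DQB1 had none in either list. Reads from these polymorphic, near-identical genes may not all map, so their counts are uncertain. Of 5 antigen processing genes 4 had mock loops and 2 had loops after PDS. TAP2, a subunit of the peptide transporter, had 6 and 2, none of them at its canonical start. In the complement group C2 had 13 loops with 62 PETs in mock and 1 with 3 PETs after PDS, while C4A and C4B, near-identical copies, had none. At its canonical start C2 had 3 and 0.

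A list of 24 genes of the class III region, not all of its genes, had the largest share with mock loops among these groups. In mock-treated cells 22 of the 24 listed genes had promoter loops (91.7%), with a median of 3.5. After PDS 8 had any, with a median of 0. The complement genes lie among them but were listed apart, and 2 of those 4 had mock loops. Of the 24 genes, 22 had fewer loops after PDS and none had more. Of all 619 short-arm genes 431 had fewer and 25 had more. TNF, LTA and LTB, the tumour necrosis factor cluster, lie side by side, had the same 5 loops in mock and 2 after PDS, of which 1 was in both lists. CLIC1 and MSH5, whose starts lie side by side and whose counts were the same, went from 7 to 0. DDX39B, an RNA helicase of mRNA export, went from 7 to 1. Of the 55 clustered histone genes 37 had mock loops (67.3%) and 15 had loops after PDS (27.3%), with the arm's medians of 2 and 0, and none had more than 1 loop after PDS; these neighbours share anchors. Of 5 glutathione S-transferase alpha genes 3 had mock loops, and only GSTA2 kept any, 2 of 4. Of 6 butyrophilins 4 had mock loops and 2 had loops after PDS.

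Of 20 growth regulators and transcription factors of the short arm 17 had mock promoter loops (85%) and 9 had loops after PDS (45%), with a median of 3 and 0, close to the 77.7% and 40.4% of all genes of the arm. VEGFA, the angiogenic growth factor, had 12 loops with 51 PETs in mock and 1 with 3 PETs after PDS, and none was shared. HMGA1, a chromatin protein, went from 8 to 1, PIM1, a kinase, from 7 to 2, and CDKN1A, the cell cycle inhibitor p21, from 3 to 0. IRF4 and CCND3 had 3 loops in both lists, of which 0 and 1 were the same loops.

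Of 18 such genes of the long arm 13 had mock loops (72.2%) and 8 had loops after PDS (44.4%), with a median of 4 and 0, against 63.8% and 33.6% of all 431 genes of the arm, whose medians were 1 and 0. TNFAIP3, the inhibitor of NF-kappaB signalling A20, went from 12 loops with 60 PETs to 5 with 21, of which 3 were shared. QKI, an RNA-binding protein, went from 10 to 2, SGK1, a kinase, from 9 to 3, and ESR1, the oestrogen receptor, from 5 to 4. CCN2 and FOXO3 went from 4 to 0. Of 12 liver and housekeeping genes at 6q25 to 6q27, 10 had mock loops and 7 had loops after PDS. SOD2, the mitochondrial superoxide dismutase, went from 13 to 2, and IGF2R, the receptor that takes up insulin-like growth factor II, from 12 to 6. At the canonical start alone SOD2 had 2 and 0, QKI 1 and 0, SGK1 1 and 1, and ESR1 1 and 2. IGF2R had 8 and 4 there, and TNFAIP3 all of its loops, 12 and 5. LPA had none in either list, and PLG, plasminogen, went from 2 to 0. Of the vanin, ectonucleotidase and arginase genes 3 of 5 had mock loops, with 17 loops at ENPP1 and 1 each at ENPP3 and ARG1. Of the 17 at ENPP1, 1 lay at its canonical start.

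The labelled cell type was set against hepatocyte markers, all of them on other chromosomes. Of 9, 8 had mock promoter loops, with 13 each at ALB and HNF4A, 7 at TF, 5 at AFP, 1 to 3 at APOB, TTR, SERPINA1 and FGB and 0 at APOA1, and 8 had loops after PDS. Of 4 markers of other cells 3 had mock loops, PECAM1 with 8, COL1A1 with 4 and CD3E with 2, while PTPRC had none. The counts of the 2 lists overlap, and loops at a promoter are no measure of expression, so they do not settle the label.

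The strongest loop of the chromosome lay near the end of the long arm, between chr6:167214802-167226086 and chr6:167280195-167290125, with 1 end in UNC93A. It had 36 PETs in mock and 9 after PDS. Its first anchor also joined chr6:167306550-167320372 with 16 and 6 PETs. Of the stretches of 31 bases in these anchors, 33.0% and 35.2% occur more than once in GRCh38 without its alternate contigs, against 4.93% to 10.5% for the next 3 long-arm loops, so part of these PETs may come from other copies. Those 3 lay at TAB2, SYNJ2 and MAN1A1, a mannosidase gene, with 14, 14 and 13 PETs in mock and 5, 5 and 4 after PDS.

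No short-arm loop exceeded 15 PETs. The strongest, between chr6:25867126-25878270 and chr6:25882227-25921145 at SLC17A3, had 15 in mock and was not listed after PDS. The next had 13 PETs each: a loop at MYLIP, a ubiquitin ligase gene, with 3 after PDS, a loop to the MICB anchor shown above, not listed after PDS and with 31.3% of its 31-base stretches repeated in the genome, and a loop at chr6:44033951-44054962 with no promoter and 3 PETs after PDS. The fifth, within EEF1E1, had 12 and was not listed after PDS.

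The loops with most PETs after PDS were partly as strong or stronger than in mock. The strongest short-arm loop after PDS, between chr6:53834913-53852066 and chr6:53853348-53859551 within LRRC1, had 12 PETs against 9 in mock. A loop from within GPLD1 to an anchor that holds promoters of both ALDH5A1 and GPLD1 had 9 in both lists. On the long arm a loop within ESR1 had 9 PETs after PDS, and a loop within ARID1B, away from its promoters, had 8. Neither was listed in mock. These loops were picked from the top of the PDS list, which favours high PDS values.

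Anchors with 10 partners or more fell under that number on both arms, and those named here stayed in use. The matching counts for other chromosomes are not given here. In mock, 19 short-arm and 17 long-arm anchors had 10 partners or more, and none had after PDS, when the most were 6 and 7. The anchor with most partners on the short arm, within ZFAND3, had 15 in mock and 6 after PDS, and that on the long arm, within MAN1A1, had 16 and 4. The anchor shared by RUNX2 and SUPT3H went from 14 to 3, that of VEGFA from 12 to 1, and that of TNFAIP3 from 12 to 5. Anchors in use went from 3154 to 1413 on the short arm, 1062 of them in both lists, and from 3298 to 1387 on the long arm, 1015 of them in both. Fewer partners per anchor follow in part from fewer listed loops, and this part was not tested.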

How the data were processed

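POLR2A HiChIP was read from 4 HepG2 samples (2 mock, 2 PDS), given as 2 combined loop lists. Per the authors' methods and the submitters' processing notes, reads were mapped to GRCh38 and deduplicated with HiC-Pro 3.1.0. The loop caller and the way replicates were combined are not given in the sources used here. The deposited value of a loop is a raw count of PETs, at least 3 and not scaled for depth. Loops were compared by identical anchors. Ratios carry 95% intervals, computed by the Wilson method on the PDS part of both counts summed, and ratios of 2 ratios from the log odds ratio. No test between conditions was possible. Loops were placed in 10 Mb windows by their midpoint, and windows under 20 mock loops got no ratio. Promoters were 1000 bp on either side of transcript starts (GENCODE 44). The PET factor used shared loops with 7 to 19 summed PETs and was tested on simulated data, where 6 of 6 intervals held the true factor. The simulated loops all had the same factor, as the method assumes. Unequal factors and a filter beyond the minimum of 3 PETs were not simulated. Genes named were the 10 with most mock promoter loops, the 10 with most mock promoter PETs and the 5 with most PDS promoter loops per arm, genes at the 5 strongest loops per arm and list, and gene list members; genes that lost or gained loops were named after their values were seen. Members and lists were chosen with earlier results of these data known. Python 3.11.15, scipy 1.17.1 and pysam 0.24.0 were used.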

Additional observations from a re-analysis of the deposited data

How the results depend on the processing

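Of 63 alternative values, 40 stayed within the interval of the value reported or, for numbers of windows and genes, within 1.5 times it, 22 moved further and 1 turned. The arm ratios depended most on the PET minimum. With 4 PETs or more they were 0.210 (short) and 0.237 (long), short over long 0.887, and with 5 or more 0.111 and 0.167, short over long 0.664. In PETs they were 0.267 and 0.268. The higher short-arm density turned to 0.687 per protein-coding gene. The share of mock loops also listed after PDS was 26.4% on both arms (26.45 and 26.42) with anchors extended by 5 kb, and 25.4% and 25.8% for mock loops with at least 5 PETs. With 5 PETs or more, window ratios ran from 0.0441 to 0.250, and 11 windows were under 0.2. With canonical starts only, 2 (loops) and 2 (PETs) of the 10 leading genes remained on the short arm and 3 and 5 on the long arm. G4 spacers of 1 to 12 gave 90.2% and 82.9% of loops with a motif. The ratio at 70 to 110 Mb, whose 8 alternatives were chosen after seeing the data, was 0.0778 with 4 PETs or more and between 0.139 and 0.156 under the others. The cause of these moves was not tested, except that a higher minimum leaves fewer loops.

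No paired analysis was possible because the replicates of each condition were combined into 1 list before deposit. For the same reason leaving out a replicate and the replicate block were not run. The PET minimum limits every statement on loss, since a loop not listed can still have had PETs. As the loop caller is not known, how many PETs an unlisted loop had is not known either. Depth per sample is unknown, so the overall fall cannot be told apart from a difference in depth.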
